A study of Mus musculus with 4 samples.

Results

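Receptors and binding proteins of the fibroblast growth factor (FGF) family were followed in 2 mouse keratinocyte lines, MK2 and MK1. The 7 genes were the receptors Fgfr1, Fgfr2, Fgfr3 and Fgfr4, the receptor-like gene Fgfrl1, the secreted binding protein Fgfbp1 and the adaptor Frs2, taken by name from the 23420 gene rows of the deposited count table. Total RNA of 2 biological replicate cultures of each line was sequenced with the Illumina TruSeq kit, and no treatment or genotype beyond the line name is given in the labels. The labels give nothing on the strain, sex, passage or clonal origin of either line. The single comparison is MK2 against MK1, and with 1 line on each side a p-value measures the spread between cultures, not between keratinocyte lines at large.

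FGFs are secreted signals that bind heparan sulfate and a receptor tyrosine kinase together, and the activated receptor phosphorylates Frs2, which links it to the RAS-ERK and PI3K pathways. In the epidermis the epithelial IIIb splice form of Fgfr2 receives Fgf7 and Fgf10 from the dermis, Fgfr3 is a further epithelial receptor, and Fgfr1 is typical of mesenchymal cells. Fgfrl1 lacks the tyrosine kinase domain, and Fgfbp1 carries FGFs away from heparan sulfate in the matrix.

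Fgfr2 was the dominant FGF receptor of both lines, and it fell in MK2, whereas the scarcer Fgfr3 rose. Fgfbp1, the most abundant of the 7 per length (TPM), fell about 3.06-fold, and Fgfrl1 fell to a smaller extent. Fgfr1 and Fgfr4 were nearly or wholly without reads in both lines, and Frs2 did not pass the test. Thus, of 5 tested genes, 1 was called higher and 3 were called lower (quasi-likelihood F test of edgeR, threshold 0.05 after Benjamini-Hochberg adjustment over the whole table). With MK1 replicate 1 left out, 1 gene was called lower, Fgfbp1. Among all 12479 tested genes, 25.9% were higher and 28.6% lower, 54.6% in all. Beyond 2-fold, glmTreat called 1 of the 5, Fgfbp1, which was lower, beside 13.3% of all tested genes and 10.1% called lower. The cultures of the lines did not overlap for any of the 5 tested genes, as for 80.5% of all tested genes. Their median log2 change was -0.68, beside -0.01 for all tested genes.

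Promoter windows are shown for the dominant receptor, for the receptor that rose and for the binding protein, so that their starts can be compared; no measurement used here was made on promoters. They are RefSeq windows on GRCm38.p6 (the same assembly as mm10), from 250 bases before to 50 bases after the annotated start, and this start was also the start of the gene in the deposited table. The Fgfr2 window is chr7:130266759-130267058 on the minus strand, the Fgfr3 window chr5:33721474-33721773 on the plus strand, and the Fgfbp1 window chr5:43981750-43982049 on the minus strand. Capitals mark the TATA box TATAAA, the GC box GGGCGG, the CCAAT box CCAAT, the AP-1 site TGANTCA and the decamer of the p53 family, each searched on both strands.
Fgfr2: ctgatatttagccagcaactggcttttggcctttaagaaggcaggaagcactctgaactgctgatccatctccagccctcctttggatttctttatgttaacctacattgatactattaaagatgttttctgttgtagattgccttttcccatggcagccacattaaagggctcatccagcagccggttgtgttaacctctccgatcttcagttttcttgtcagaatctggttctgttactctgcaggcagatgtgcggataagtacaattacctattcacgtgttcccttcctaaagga
Fgfr3: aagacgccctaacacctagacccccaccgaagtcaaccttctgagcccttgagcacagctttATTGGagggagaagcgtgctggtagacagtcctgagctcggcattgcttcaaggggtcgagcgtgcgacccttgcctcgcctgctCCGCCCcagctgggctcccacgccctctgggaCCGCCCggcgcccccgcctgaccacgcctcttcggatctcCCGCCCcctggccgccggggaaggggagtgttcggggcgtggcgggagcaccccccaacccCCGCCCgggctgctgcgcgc
Fgfbp1: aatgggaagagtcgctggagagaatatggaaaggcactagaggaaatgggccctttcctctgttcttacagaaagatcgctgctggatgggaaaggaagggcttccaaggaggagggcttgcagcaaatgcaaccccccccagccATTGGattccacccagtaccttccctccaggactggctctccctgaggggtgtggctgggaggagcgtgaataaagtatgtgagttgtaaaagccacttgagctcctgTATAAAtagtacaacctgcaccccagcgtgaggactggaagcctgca
The Fgfr2 window was 43.7% G and C and held none of the 5 motifs. The Fgfr3 window was 69.7% G and C, with 4 GC boxes and 1 CCAAT box. The Fgfbp1 window, at 53.3% G and C, had 1 TATA box and 1 CCAAT box. Of 32851 windows in the RefSeq table, 13.6% held the TATA box, 35.7% the GC box, 37.4% the CCAAT box, 7.81% the AP-1 site and 8.36% the p53 family decamer, and the median window was 52.7% G and C. Fgfr3 has a further annotated start whose window is not printed, 6 of the 7 genes had a window in that table, and a match of letters is a description and not a binding site.

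Both lines expressed keratinocyte markers. All 8 listed keratinocyte markers were detected, with a summed level of 18749 to 22034 CPM in MK2 and 22479 to 22533 CPM in MK1 (CPM are counts per 1000000 counts of a library, scaled between libraries by TMM). Krt5 and Krt14, which made up most of that sum, did not pass the test. Of the other 6, Itga6 was higher in MK2 (log2 change 0.83), Cdh1, Dsp and Perp were lower (-1.14, -0.81 and -0.57), and Trp63 and Itgb4 did not pass. The 10 fibroblast markers summed to 2.26 to 2.61 CPM in MK2 and 36.0 to 43.9 CPM in MK1, of which the transcription factor Twist1 made up 1.20 to 1.23 CPM in MK2 and 32.1 to 40.5 CPM in MK1, while Dcn, Lum and Pdgfrb had 0 counts in every library. The 4 simple-epithelial keratins summed to 26.7 to 32.1 CPM in MK2 and 3704 to 3799 CPM in MK1, but Krt19 stayed at 0.247 to 0.558 CPM in the 4 libraries. The 8 leukocyte markers summed to 0.0705 to 0.238 CPM in MK2 and 29.0 to 29.8 CPM in MK1. Of the MK1 sum, Cd74 made up 17.9 and 17.7 CPM, while Cd3e and Lyz2 were at most 0.149 CPM and were not tested. The 5 melanocyte markers stayed at 0.846 to 1.53 CPM in the 4 libraries, and the 5 endothelial markers stood at 25.4 to 27.4 CPM in MK2 and 15.04 to 17.8 CPM in MK1, nearly all of it Kdr, with Cdh5 at 0 counts in every library. The part of these marker differences in the results below was not tested, and in bulk RNA fewer cells of a type and less RNA per cell cannot be told apart. Libraries held 25237391 and 28601806 counts for MK2 and 30261111 and 26693849 counts for MK1.

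Fgfr2, the receptor for keratinocyte growth factor (chromosome 7, 130162451 to 130266808 on mm10, minus strand), stood at 179 and 131 CPM in the MK2 cultures, against 247 and 250 CPM in the MK1 cultures. Both MK2 cultures lay below both MK1 cultures, and the MK2 cultures differed more from each other than the MK1 cultures did. The means were 155 ± 34.3 CPM in MK2 and 248 ± 1.77 CPM in MK1 (each ± is the SD over 2 cultures, n = 2, here and further on). The log2 change was -0.68 with a standard error of 0.16 (edgeR's quasi-likelihood test, adjusted p = 0.0104). With MK1 replicate 1 left out the change was -0.69 and was not called (edgeR, adjusted p = 0.0697). Leaving out MK1 replicate 2 gave -0.68, again not called (edgeR, adjusted p = 0.0659). Counts were summed over the whole gene, so the IIIb and IIIc splice forms cannot be told apart.

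Fgfr3 (chromosome 5, 33721724 to 33737068, plus strand), whose activating mutations cause benign epidermal growths in human skin, was expressed at a low level. It stood at 8.46 and 7.05 CPM in MK2, against 2.33 and 3.50 CPM in MK1, from 213 and 200 counts in MK2 and 71 and 94 counts in MK1. The lines did not overlap, and the lower MK2 culture was still above the higher MK1 culture. Fgfr3 averaged 7.76 ± 0.996 CPM in MK2 and 2.92 ± 0.824 CPM in MK1, a 2.66-fold increase (log2 change 1.41, standard error 0.25, adjusted p = 0.00352 in edgeR's quasi-likelihood test). A change beyond 2-fold was not called (glmTreat, adjusted p = 0.136). Of the tested genes, 96.0% had a lower log2 change than Fgfr3.

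Fgfr1 and Fgfr4, the other receptor genes, gave almost no reads. Fgfr1 (chromosome 8, 25518772 to 25575714) had 0 and 4 counts in MK2, against 0 and 0 counts in MK1. The 4 counts of MK2 replicate 2 carry an exact 95% Poisson interval of 1.09 to 10.2 counts. For a library with 0 counts the same interval reaches 3.69 counts. A rounder floor of 3 counts equals 0.0987 to 0.119 CPM in these libraries. These figures cover counting error only. Fgfr4 (chromosome 13, 55152818 to 55168759), a receptor best known from liver, had 0 counts in all 4 libraries. For this gene the floor of 3 counts equals 0.0664 to 0.0765 TPM. Neither gene passed the filter on low counts, so neither was tested. With that filter removed, Fgfr1 did not pass (edgeR, adjusted p = 0.203).

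**Figure D1:**
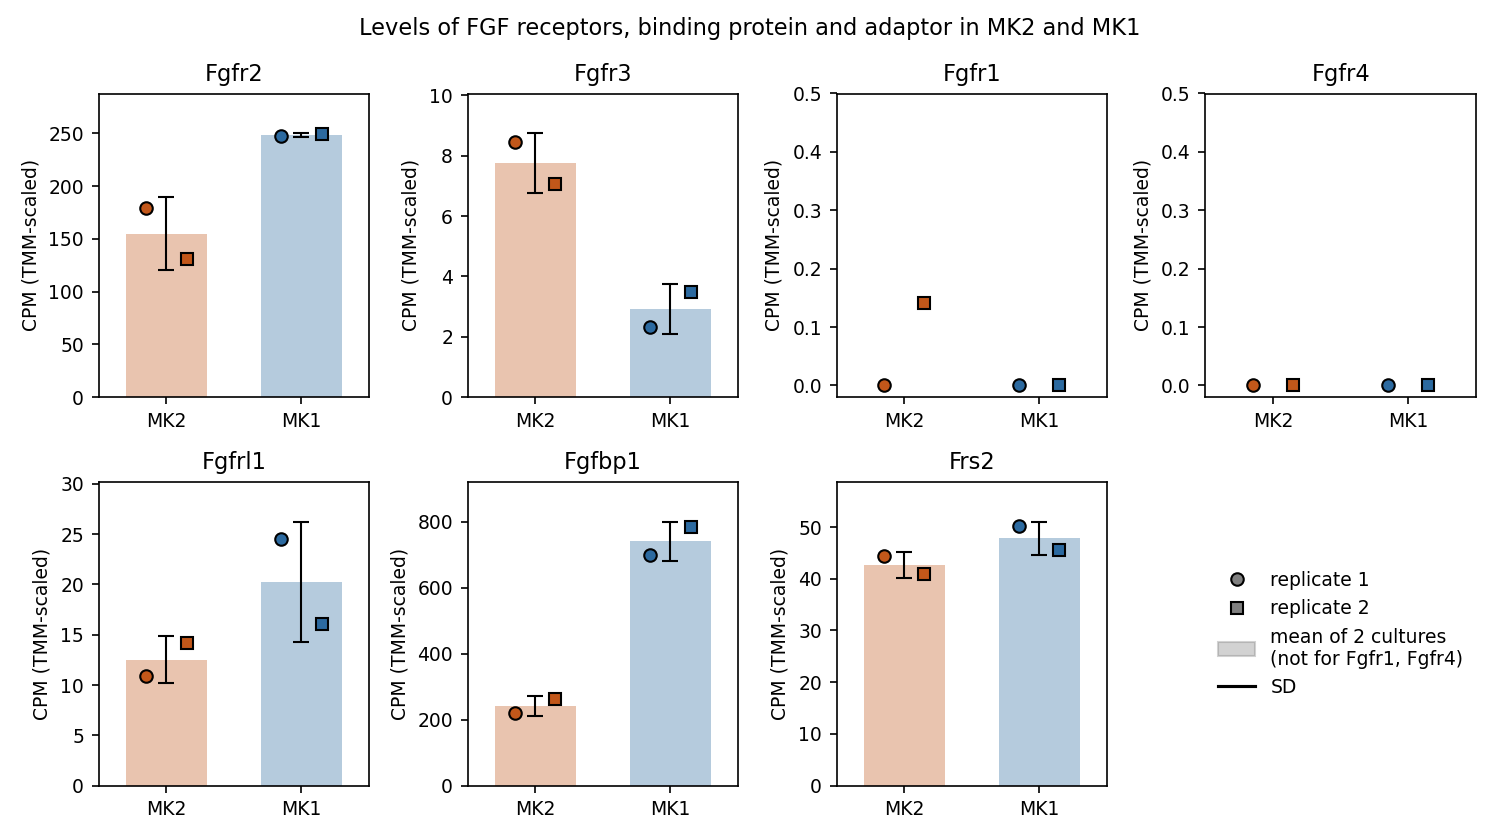
Level of each of the 7 genes in CPM, on a linear axis of its own, in the 2 cultures of MK2 and the 2 of MK1. Circles and squares are replicate 1 and replicate 2, bars the mean and error bars the SD (not drawn for Fgfr1 and Fgfr4). Fgfr3 is higher in both MK2 cultures, at 7.05 to 8.46 CPM, whereas Fgfr2, Fgfrl1 and Fgfbp1 are lower in both.

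Set against each other per length, the receptors differed in their mix between the lines. TPM are reads per base of exon, scaled to sum to 1000000 in a library. Fgfr2 had 67.7 and 48.5 TPM in MK2 and 97.9 and 96.7 TPM in MK1, and Fgfr3 had 3.88 and 3.18 TPM in MK2 and 1.12 and 1.65 TPM in MK1. Fgfr3 thus made up 5.42% and 6.14% of the summed TPM of Fgfr1 to Fgfr4 in MK2, against 1.13% and 1.67% in MK1. Fgfr2 made up 94.6% and 93.7% in MK2, against 98.9% and 98.3% in MK1. In ratio, Fgfr2 exceeded Fgfr3 by 16.3 ± 1.54-fold in MK2 and by 72.9 ± 20.1-fold in MK1. The summed receptor level was 61.6 ± 14.1 TPM in MK2 and 98.7 ± 0.498 TPM in MK1. An exact two-sided permutation test of 2 against 2 libraries cannot go below p = 0.333, so these shares are given without a test.

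**Figure D2:**
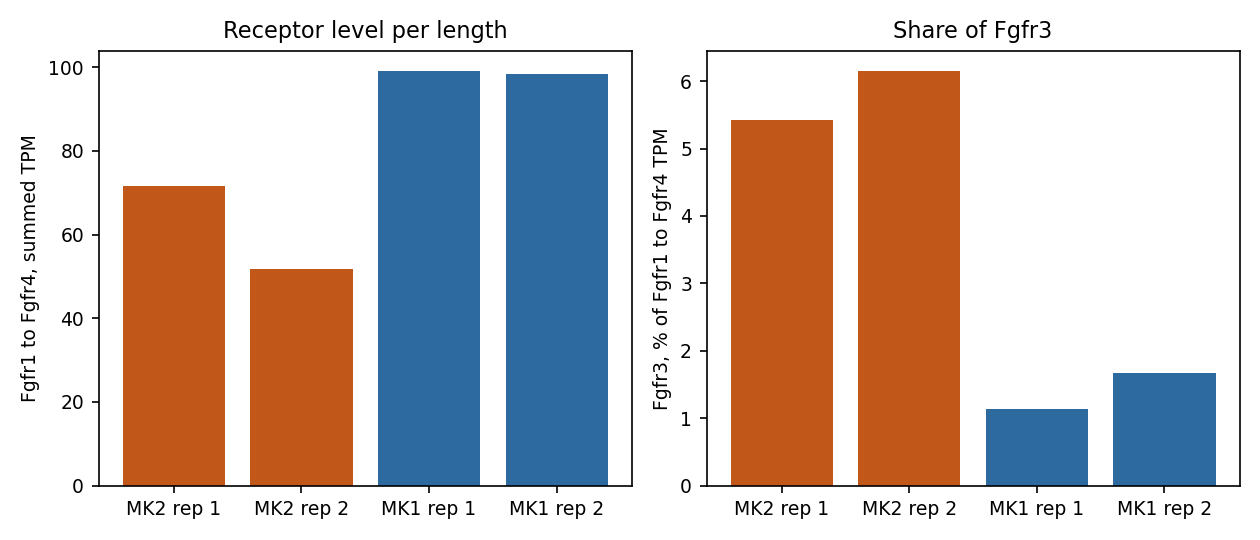
Summed TPM of Fgfr1 to Fgfr4 (left) and the share of Fgfr3 in that sum in percent (right), with 1 bar per library, MK2 in orange and MK1 in blue. The sum is lower and the Fgfr3 share higher in both MK2 libraries, at 5.42% and 6.14%, than in both MK1 libraries, at 1.13% and 1.67%.

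Among 58 receptor tyrosine kinases with a row in the table, Fgfr2 ranked 6 of 58 by mean TPM in MK2 and 6 of 58 in MK1. The kinases Axl, Met and Ddr1 stood above it in both lines, with Axl, which did not pass the test, at 466 ± 115 TPM in MK2 and 574 ± 31.5 TPM in MK1. In MK2 the neighbour above Fgfr2 in that order was Epha1 at 74.7 ± 15.8 TPM, whose range over cultures overlapped that of Fgfr2. In MK1 the neighbours were Epha2 at 98.7 ± 6.89 TPM above, which overlapped Fgfr2, and Ryk at 94.97 ± 0.177 TPM below, which did not. Epha1 and Ryk were named after their values were seen, as was Epha2. Fgfr3 ranked 24 in MK2 and 25 in MK1. Among all tested genes, 25.9% were higher and 28.6% lower in MK2. Of the other 54 kinases, 29 were tested, 5 were higher and 13 lower in MK2, with a median log2 change of -0.18. Without MK1 replicate 1 these counts were 4 and 6, and without MK1 replicate 2 they were 3 and 10. Ror2, a Wnt receptor, had 2 and 1 counts in MK2, against 59 and 23 counts in MK1, and the ephrin receptor Ephb2 had 7 and 5 counts in MK2, against 166 and 93 counts in MK1. Both were called lower, but they passed the count filter through MK1 alone and could only be found lower, and no fold is given for them. Other kinase calls were of this kind in both directions. Csf1r, called lower, had 2 and 4 counts in MK2, against 25 and 16 counts in MK1. Flt1, called higher, had 19 and 32 counts in MK2, against 4 and 5 counts in MK1. Csf1r and Flt1 were named after their values were seen. The numbers of higher and lower kinases were thus partly set by the filter. Ptk7, a receptor without active kinase, had a log2 change of -2.45, which was -3.06 without MK2 replicate 2. It stood at 15.3 and 30.9 TPM in MK2, against 135 and 130 TPM in MK1, and so changed its place relative to Fgfr2. Mst1r, an epithelial receptor related to Met, had a log2 change of -2.02. Pdgfra, a receptor of fibroblasts, stood at 0.318 and 0.987 CPM in MK2, against 3.22 and 2.53 CPM in MK1. It was called lower, but it passed the count filter through MK1, where it was higher, and no fold is given for it. The Pdgfra call ended in edgeR without MK1 replicate 1.

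**Figure D3:**
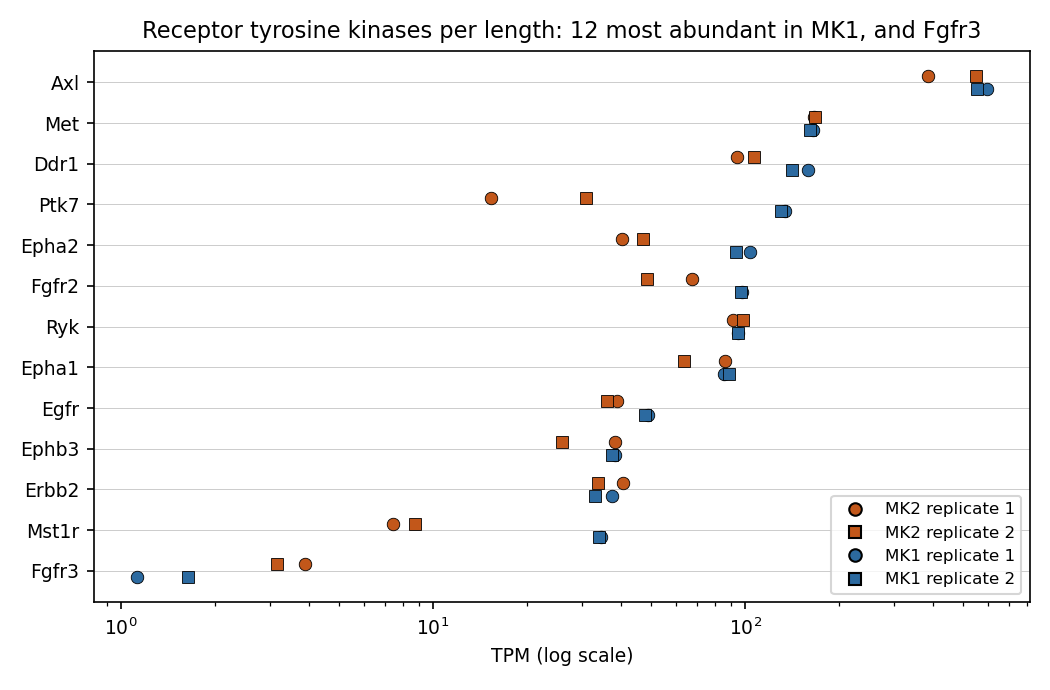
TPM on a log axis for the 12 receptor tyrosine kinases most abundant in MK1, and for Fgfr3, with 1 point per library (orange MK2, blue MK1, circle replicate 1, square replicate 2). Fgfr2 lies at 48.5 to 67.7 TPM in MK2, left of its 96.7 to 97.9 TPM in MK1, whereas Fgfr3 lies to the right in MK2.

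Fgfrl1, the receptor without a kinase domain (chromosome 5, 108694229 to 108706950, plus strand), stood at 10.9 and 14.2 CPM in MK2, against 24.5 and 16.05 CPM in MK1. The lines did not overlap, but the MK1 cultures differed widely and the lower of them was close to the higher MK2 culture. The means were 12.5 ± 2.33 CPM in MK2 and 20.3 ± 5.98 CPM in MK1, with a log2 change of -0.69 (standard error 0.24, adjusted p = 0.0437 in edgeR's quasi-likelihood test). Without MK1 replicate 1 the change was -0.36 and the call ended (edgeR, adjusted p = 0.294), and it also ended without MK2 replicate 1 (log2 change -0.51, adjusted p = 0.115). Per length Fgfrl1 equalled 11.6% and 20.5% of the summed receptor TPM in MK2, against 19.7% and 12.7% in MK1, so its ratio to the receptors overlapped between the lines. The gene below it on the chromosome, Idua, which encodes a lysosomal enzyme that degrades heparan sulfate, had a log2 change of -1.32, and Crlf2 above it one of -0.52.

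Fgfbp1, which releases FGFs from the matrix and is a known product of cultured keratinocytes (chromosome 5, 43978858 to 43981799, minus strand), stood at 221 and 262 CPM in MK2, against 699 and 783 CPM in MK1. The groups were far apart, with the highest MK2 culture below the lowest MK1 culture. Means were 242 ± 29.2 CPM in MK2 and 741 ± 59.3 CPM in MK1. The log2 change was -1.62 (standard error 0.13, adjusted p = 1.65e-04 in edgeR's quasi-likelihood test), and it passed as a change beyond 2-fold (glmTreat, adjusted p = 0.00320). Fgfbp1 was called lower in each of the 10 refits, and the change lay between -1.74 and -1.49 when 1 library was left out. Per length Fgfbp1 ranked 352 of all rows in MK2 and 114 in MK1, at 387 ± 41.7 TPM in MK2 and 1242 ± 79.4 TPM in MK1. It exceeded Fgfr2 by 5.28-fold and 8.60-fold in the MK2 cultures and by 12.1-fold and 13.4-fold in the MK1 cultures.

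Frs2, the docking adaptor of activated FGF receptors (chromosome 10, 117070127 to 117148474, minus strand), stood at 44.4 and 40.9 CPM in MK2, against 50.1 and 45.6 CPM in MK1. The lowest MK1 culture lay just above the highest MK2 culture. The means were 42.7 ± 2.48 CPM in MK2 and 47.9 ± 3.19 CPM in MK1. The log2 change of -0.17 (standard error 0.11) did not pass (edgeR's quasi-likelihood test, adjusted p = 0.243). By TPM the order in MK2 was Fgfbp1, Fgfr2, Frs2 at 15.02 ± 1.07, Fgfrl1 at 9.42 ± 1.63 and Fgfr3 at 3.53 ± 0.500, with no overlap between neighbours. In MK1 the order was the same, but Frs2 at 17.6 ± 1.46 TPM and Fgfrl1 at 16.01 ± 4.97 TPM overlapped.

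Of the 3 genes on chromosome 5, Fgfr3 rose while Fgfrl1 and Fgfbp1 fell. The median log2 change of the 813 tested genes of chromosome 5 was -0.02. Over the 50 nearest tested genes, 25 on each side, the median was -0.06 around Fgfr3, -0.05 around Fgfbp1, -0.01 around Fgfrl1 and 0.06 around Fgfr2. With that median subtracted, the changes were 1.47 for Fgfr3, -1.57 for Fgfbp1, -0.68 for Fgfrl1 and -0.74 for Fgfr2. Around Frs2 the median was -0.18, which left 0.01. Tacc3, a spindle protein and the tested gene next below Fgfr3, rose by 0.67, and Letm1 on the other side had a log2 change of 0.10 that did not pass. The nearest tested genes of Fgfr2, Wdr11 and Ate1, had changes of 0.08 and -0.08 that did not pass. No exon of the 7 genes overlapped an exon of another row on either strand (0 rows).

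**Figure D4:**
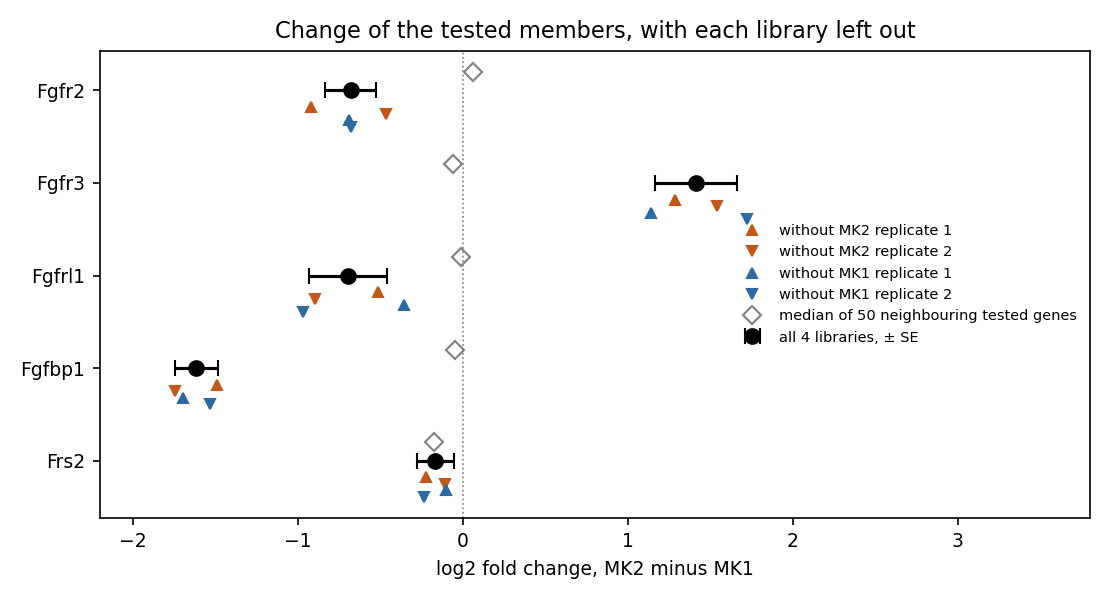
Log2 fold change, MK2 minus MK1, of the 5 tested genes from all 4 libraries (black, ± SE), with each library left out in turn (triangles) and beside the median of the 50 neighbouring tested genes (open diamonds). Fgfr3 lies at 1.14 to 1.73 and Fgfbp1 at -1.74 to -1.49 whichever library is left out, while Fgfrl1 moves between -0.97 and -0.36.

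The genes whose 4 levels were most like those of the FGF genes were found by the Euclidean distance between centred log2 CPM over the 4 libraries, among genes at 10 CPM or more. For Fgfbp1 these were Fstl3, a secreted activin antagonist, at a distance of 0.0385 and Ankrd22 at 0.0438. Fgfr2 lay nearest to Prkab2, a subunit of the kinase AMPK, at 0.0726 and to Bcr at 0.0803. Fgfr3 lay nearest to Ppih at 0.114 and to the kinetochore gene Dsn1 at 0.119, and Fgfrl1 to Plk3 at 0.148 and Tnip1 at 0.169. Each of the 8 genes lies on another chromosome than the gene it resembled, and 9281 or 9282 genes were compared with each. With 4 values per gene, near matches are easily found among so many genes, and shared regulation was not tested.

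FGF ligands were nearly absent in both lines, apart from Fgf7 in MK2. Of 18 ligand genes, 11 had 0 counts in all libraries and 2 were tested, 1 higher and 1 lower. Over all tested genes the shares were 25.9% higher and 28.6% lower. Fgf7, the keratinocyte growth factor that Fgfr2 receives and that is usually made by dermal fibroblasts, stood at 3.54 and 5.71 CPM in MK2, against 0.164 and 0.0745 CPM in MK1. The MK2 cultures were both far above the MK1 cultures, and Fgf7 was called higher in MK2. The 10 fibroblast markers summed to 2.26 and 2.61 CPM in MK2, against 36.0 and 43.9 CPM in MK1. Twist1 stood at 1.23 and 1.20 CPM in MK2, against 32.1 and 40.5 CPM in MK1, whereas Dcn, Lum and Pdgfrb had 0 counts in every library, and the part of these markers in the Fgf7 difference was not tested. Fgf21, named after its value was seen, was at most 0.526 CPM, and its lower level in MK2 was no longer called by edgeR with MK2 replicate 1, MK1 replicate 1 or MK1 replicate 2 left out (adjusted p = 0.0742, 0.180 and 0.109). Of the 4 intracellular FGF homologous factors, which are not secreted, 2 were tested. Fgf11 was called lower in MK2. Fgf11 fell to 0.556 and 0.212 CPM in MK2, against 2.63 and 2.05 CPM in MK1, and Fgf13, named after its value was seen, was called higher at 0.755 and 0.423 CPM in MK2, against 0.0329 and 0 CPM in MK1. With MK2 replicate 1 left out, 0 of these factors were higher. Fgf7, Fgf21, Fgf11 and Fgf13 passed the count filter through the line in which they were higher. The filter itself thus favoured the direction of their calls, and no fold is given for them.

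Cell-surface partners of FGF signalling changed in both directions, and the changes of Flrt2 and Sdc2 were far larger than those of the receptors. Of 17 listed co-receptors and binding proteins, 12 were tested, 4 were higher and 6 lower in MK2, and the median log2 change was -0.44. Among all tested genes 54.6% were called. The lower genes included Flrt1, named after its value was seen, with 6 and 7 counts in MK2, against 24 and 21 counts in MK1. Flrt1 passed the count filter through MK1 alone and could only be found lower, so the filter partly set the count of lower genes and the median. Flrt2, a membrane protein of the family that binds FGF receptors, stood at 331 and 233 CPM in MK2, against 1.81 and 2.42 CPM in MK1. Its log2 change of 7.06 (adjusted p = 8.63e-06 in edgeR's quasi-likelihood test) was larger in size than that of any of the 5 tested FGF genes. Flrt3, its relative, rose by 1.63, a gene named after its value was seen. Gpc2, a glypican, stood at 3.85 and 8.50 CPM in MK2, against 0.954 and 0.707 CPM in MK1. It rose by 2.89, and by 2.20 without MK2 replicate 2. Of the syndecans, heparan sulfate proteoglycans of the cell surface, Sdc2 stood at 1.87 and 3.39 CPM in MK2, against 145 and 154 CPM in MK1, Sdc3 fell by 1.94 on the log2 scale and the abundant Sdc1 fell by 0.69. The Sdc1 call ended without MK1 replicate 1 (edgeR, adjusted p = 0.0746), and the count of lower genes was then 4. Gpc4 fell by 3.04. Fgfbp3, a paralog of Fgfbp1 that was also named after its value was seen, stood at 6.40 and 9.13 CPM in MK2, against 25.5 and 24.7 CPM in MK1, a log2 change of -1.69 beside -1.62 for Fgfbp1.

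Enzymes that build and edit heparan sulfate, the FGF cofactor, were mixed. Of 18 listed, 13 were tested, with 3 higher, 5 lower and a median of -0.22, beside 54.6% called among all tested genes. The higher genes included Hpse, named after its value was seen, with 10 and 12 counts in MK2, against 6 and 2 counts in MK1. Hpse met the count filter in MK2 only and could not be found lower. Sulf2, which removes sulfates from heparan sulfate outside the cell, stood at 63.7 and 76.2 CPM in MK2, against 541 and 581 CPM in MK1 (log2 change -3.00, adjusted p = 1.80e-05 in edgeR's quasi-likelihood test). Of the enzymes that add N-sulfates, Ndst2 had a log2 change of -0.93. Ndst3 had 3 and 2 counts in MK2, against 45 and 45 counts in MK1, and because it met the count filter in MK1 only, it could not be found higher. Hs6st1, a 6-O-sulfotransferase, rose by 1.10. Hs3st3b1 had a log2 change of -0.95, and that call was lost in edgeR when MK2 replicate 2, MK1 replicate 1 or MK1 replicate 2 was left out (adjusted p = 0.0660, 0.0709 and 0.136). Without MK1 replicate 1 the list had 1 higher and 3 lower genes, without MK1 replicate 2 it had 2 and 3, and without MK2 replicate 2 it had 1 and 5.

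Transducers that act with or below Frs2 were mixed. All 28 were tested, and 7 were higher, 5 lower and 16 did not pass, beside 54.6% called among all tested genes, and the median was 0.11. Plcg1, the phospholipase that docks on activated receptors, rose by 1.35 to 209 and 231 CPM in MK2, against 82.2 and 90.4 CPM in MK1. Hras1 rose by 0.65, whereas Mapk3, which encodes ERK1, fell by 0.80 and the PI3K subunit Pik3r1 fell by 0.94. Frs3, the paralog of Frs2, had a log2 change of -1.74, at 0.516 and 0.705 CPM in MK2 against 2.17 and 1.94 CPM in MK1, with exons that overlap those of the row Gm14873. Akt1, the most abundant member per length, had a log2 change of 0.11 that did not pass (edgeR, adjusted p = 0.394). The Mapk3 call ended without MK1 replicate 1 (edgeR, adjusted p = 0.0566). Without MK1 replicate 1 the list had 2 higher and 2 lower genes, and without MK1 replicate 2 it had 2 and 3.

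Feedback regulators and targets of the pathway were also split. Of 17 listed genes, 14 were tested, 3 were higher and 6 lower, beside 54.6% called among all tested genes, and the median was -0.24. Spry1 and Spry2, sprouty inhibitors of receptor kinase signalling, had log2 changes of -1.80 and -1.04. The immediate-early gene Egr1 fell to 7.79 and 3.74 CPM in MK2, against 44.8 and 19.99 CPM in MK1, with a wide spread within each line. Its log2 change of -2.50 was -3.11 without MK2 replicate 1 and -1.80 without MK1 replicate 1. Ccnd1, the cyclin of G1 phase, fell by 0.59, with exons that overlap those of Mir3962, and the sprouty-related Spred3 fell by 0.94. The ERK phosphatase Dusp4 stood at 0.914 and 3.28 CPM in MK2, against 0.296 and 0.223 CPM in MK1. Dusp4 was called higher, but it passed the count filter through MK2 alone and could only be found higher, so no fold is given for it. Leaving out either MK1 culture removed the Dusp4 call in edgeR. Calls of Spry2, Spred3 and Ccnd1 ended without MK1 replicate 1 (edgeR, adjusted p = 0.0546, 0.0540 and 0.0570), which left 1 higher and 2 lower genes, and without MK1 replicate 2 the counts were 1 and 5.

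Regulators of the IIIb splice choice of Fgfr2 were expressed in both lines. Esrp1, an epithelial splicing factor that favours the IIIb exon, stood at 159 and 165 CPM in MK2, against 85.5 and 80.1 CPM in MK1 (log2 change 0.97, adjusted p = 4.63e-04 in edgeR's quasi-likelihood test). Rbfox2 fell by 0.75. All 10 listed regulators were tested, with 3 higher, 2 lower and a median of 0.01, beside 54.6% called among all tested genes. Hnrnpf and Hnrnpm, RNA-binding proteins, rose by 0.64 and 0.43, and both calls ended without MK1 replicate 1 (edgeR, adjusted p = 0.0506 and 0.140), which left 1 higher and 1 lower gene. The Hnrnpm call also ended without MK1 replicate 2 (edgeR, adjusted p = 0.0639). Hnrnpa1, whose exons overlap 2 other rows, made up the second lower call at a log2 change of -0.53, and its value is uncertain. It was not called with any 1 of the 4 libraries left out, so that 1 listed gene was then lower.

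**Figure D5:**
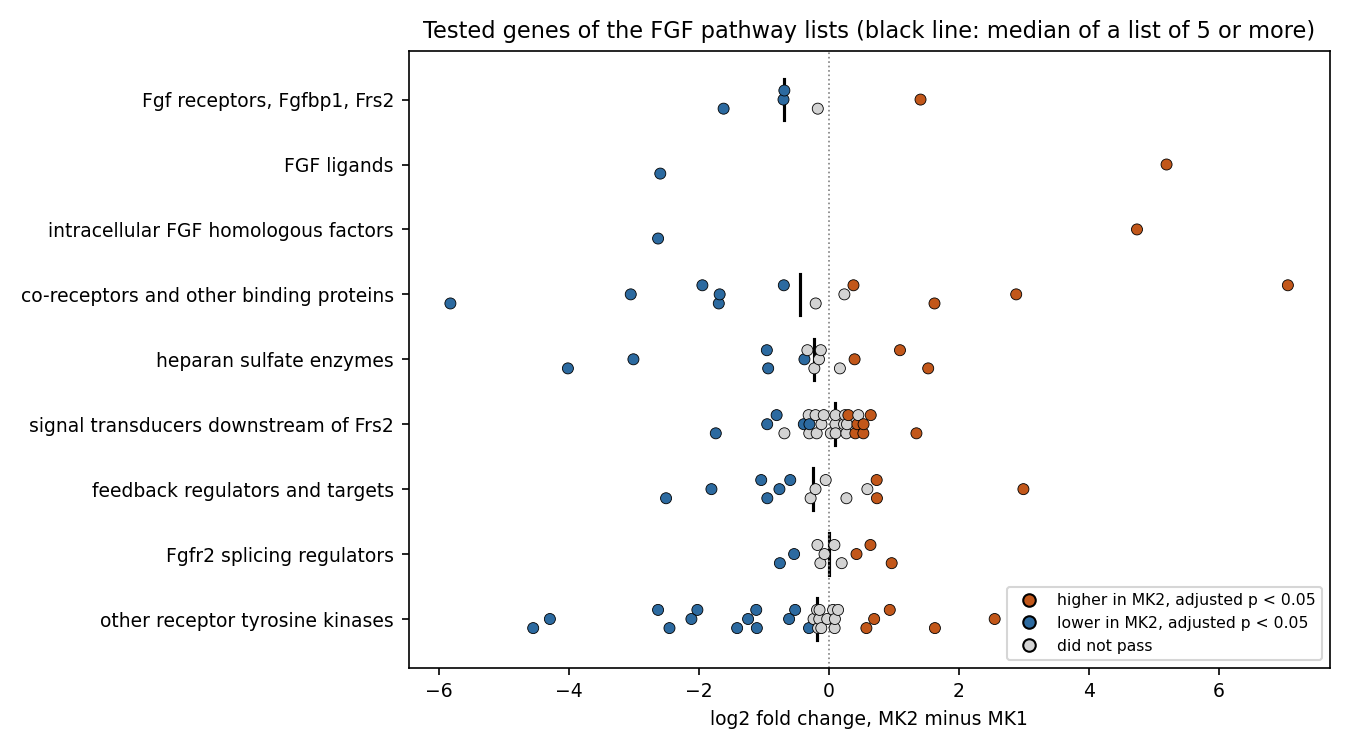
Log2 fold change, MK2 minus MK1, of every tested gene of each list, coloured by whether it was higher (orange), lower (blue) or did not pass at an adjusted p of 0.05, with the list median as a black line for lists of 5 or more tested genes. Transducers have a median of 0.11, while co-receptors spread from -5.82 for Sdc2 to 7.06 for Flrt2. Points and medians include genes that passed the count filter only through the line in which they were higher. Examples are Fgf7, Fgf13, Ror2, Ephb2 and Dusp4. The filter favoured the direction of these points, and their distance from 0 is not to be read as a fold.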

How the data were processed

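Per the file headers, the authors counted raw reads by exon and gene name with featureCounts 1.4.6-p4 in TopHat alignments to mm10, and these deposited counts were not normalised. The header's command names the alignments MK and MKU where the column names say MK1 and MK2, and columns were matched to samples by the column names, so the line labels rest on those names. Strand, pairing and multiple alignment were left at the program's defaults, so overlapping genes and near copies may share reads. The submitters' processing notes list DESeq2 1.10.1, featureCounts 1.5.0 (unlike the header), Bowtie2 2.2.6 and TopHat2 2.0.13. The gene length beside the deposited counts served for TPM.

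The whole table was fitted with edgeR 4.0.16 after filtering (filterByExpr, minimum count 10; TMM; quasi-likelihood F test; Benjamini-Hochberg adjustment over 12479 genes; glmTreat at 2-fold), with no block. DESeq2 1.42.0 was an alternative. Simulated counts for MK2 against MK1 over 12278 genes gave back 96% of 2-fold and 100% of 4-fold changes and called 0.0994% of unchanged genes. The changed genes were drawn from well-counted genes, the dispersion followed the fitted trend, and most genes were left unchanged. These rates thus do not describe genes with few counts, such as Fgf7, or a comparison with 54.6% of genes called. Replicates differed by more than counting noise (median chi-square per gene 4.28 in MK2 and 2.88 in MK1). The members and lists were chosen with earlier results of these data known. Named genes were the 7, up to 5 called genes per list at 1 CPM or more by size of change and its most abundant gene, chromosomal neighbours and nearest patterns. Count columns without a sample numbered 0.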

Additional observations from a re-analysis of the deposited data

How the results depend on the processing

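The 5 tested FGF genes kept their direction in each of the 10 refits (DESeq2 size factors, library size alone, no count filter, the DESeq2 test, each library left out, the replicate block and a crossed block added after the data were seen). With the replicate block, Fgfrl1 was no longer called (edgeR, log2 change -0.67, adjusted p = 0.0906), and the block ended no other call among the FGF genes. The deviations of same-numbered replicates did not run together (correlation -0.151), which with 2 libraries per line cannot settle whether samples were paired. For this reason a crossed replicate block was added, and it gave 1 higher and 3 lower FGF genes. Over all genes the block called 5908 and the crossed block 7454. With the chromosome median subtracted, Frs2 stood at 0.16, and the 4 called genes kept their direction. With 1 library left out, 1 to 3 FGF genes were lower, Fgfr2 lay between -0.92 and -0.47 and Fgfrl1 between -0.97 and -0.36. Over all genes, 3716 (without MK1 replicate 1) to 6847 were then called, with 4369 without MK1 replicate 2, 1527 to 3222 higher and 2189 to 3625 lower, beside 6810 from all libraries; the lone culture of a line is then assumed to vary like the other line. The difference in Axl, which had not passed, lay between -0.52 without MK2 replicate 2, where it was called, and 0.016 without MK2 replicate 1. Of 390 refitted values of 39 other named genes, 26 lost their call. The cause of these changes was not tested. Depth limits Fgfr1 and Fgfr4, whose counts were 4 or 0.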
